A study of Arabidopsis thaliana with 24 samples.

Results

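The leucine-rich repeat kinases of Arabidopsis thaliana are a family of membrane receptors, and 127 of the 24503 genes in the deposited table were taken as its members. A gene was a member where its deposited description held both "leucine-rich repeat" (or "LRR") and "kinase", and neither "TIR-NBS" nor "lectin". The members are a part of the family, since the table describes some well-known kinases in other words: of 100 kinase loci in role lists drawn up from general knowledge, 86 were in the table and 41 of those, BAK1 and BRI1 among them, did not meet the wording. SOBIR1, the gene given as the mark of the group, met it.

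RNA was sequenced from rosettes of the wild type Col-0 and of jaz4-1 (SALK_141628C), a T-DNA insertion line of JAZ4, which encodes a repressor of jasmonate responses. Plants were 3 weeks old, grew on soil at 22 °C with a 12 h photoperiod, received no hormone or pathogen treatment that the labels mention, and were harvested at dawn (ZT0) and then at ZT6, ZT12 and ZT18. A replicate pooled 6 rosettes, and 3 replicates of each line at each time made 8 groups and 24 libraries. The mutant is 1 insertion line, and a whole rosette mixes leaf ages and cell types, in which fewer cells of a type and less RNA per cell cannot be told apart.

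A leucine-rich repeat kinase carries repeats outside the cell that bind a peptide or another receptor, a membrane span and a kinase domain inside. Immune receptors such as FLS2, EFR and PEPR1 bind fragments of microbes or the plant's own danger peptides and signal through coreceptors. SOBIR1 is the adaptor kinase of receptor-like proteins that lack a kinase, and BIR1 is a member that holds immune signalling back in healthy leaves. Other members guide organ growth, stomatal spacing, meristem upkeep and cell wall function, and jasmonate is the hormone of wound and insect responses, whose JAZ repressors curb transcription factors.

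Libraries held 16832226 to 22644745 reads assigned to genes and detected 18959 to 21863 genes, with the fewest genes in Col-0 ZT0 replicate 2 and jaz4-1 ZT6 replicate 2. JAZ4 itself had 0 to 8 reads per jaz4-1 library, 31 in all, and 0 to 23 per Col-0 library, 93 in all, and a whole-gene value does not separate reads on either side of the insertion. Leaf marker genes had 734828 to 1522331 reads per library, root markers 0 to 9 and floral markers 0 to 20. The values below are normalised reads, that is, reads divided by 1 factor per library that was set within each time, so they compare the lines at a time and not the times with each other.

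Of the 127 members, 110 had enough reads to be tested, and 17 did not, with at most 101 reads each over the 24 libraries, among them GSO2, RCH1 and PXL1. No member was without a read. In CPM, the reads of a gene scaled to a common library total and averaged over the libraries, 26 members lay under 1, 34 between 1 and 10, and 67 at 10 or over, and the 10 most abundant members held 37% of all member reads. Per 1000 coding bases, the level of FEI1, a kinase of cell wall function, stood apart at 2293 normalised reads on the scale set over all libraries. Next came AT1G51805 with 754, AT3G28040 with 748 and AT3G03770 with 691, then ERECTA, the receptor of organ shape and stomatal spacing, with 658 and IRK with 598. None of these 6 was called between the lines at any time.

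The leading result is that a small set of members was called higher in jaz4-1 at ZT0 or ZT6. SOBIR1, the immune adaptor, and BIR1 were the 2 called at both times. The calls do not show that the differences were confined to these times, since the test of dependence on time called 1 of 110 members. At ZT0, 5 of 110 tested members (4.55%) were called at an adjusted p under 0.05, all higher in jaz4-1, where 0.923% of all 19614 tested genes were called and 0.734% were called higher. At ZT6, 7 (6.36%) were called, 6 higher (5.45%) and 1 lower (0.909%), against 2.95% of all genes, 2.19% higher and 0.760% lower. On average over the 4 times, 9 members (8.18%) were called, 8 higher (7.27%) and 1 lower (0.909%), against 4.68% of all genes, 3.28% higher and 1.40% lower. Each p came from limma, with Benjamini-Hochberg adjustment over all tested genes. The median log2 difference of the tested members was 0.03 at ZT0 and 0.03 at ZT6, beside 0.01 and -0.04 for all genes.

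The promoters of 4 of the 5 members that rose at ZT0 are shown because these genes were higher together at 1 time. Each is the 250 bases before the gene's annotated start in RefSeq's TAIR10.1 assembly, 5′ to 3′ on the gene's own strand. Capitals mark the W-box, the site that WRKY transcription factors bind, searched as TTGACC or TTGACT on both strands. The windows are BIR1 chr5:19607148-19607397 (-), AT1G35710 chr1:13220221-13220470 (+), AT1G56120 chr1:20993573-20993822 (-) and AT5G59680 chr5:24046262-24046511 (+).
BIR1: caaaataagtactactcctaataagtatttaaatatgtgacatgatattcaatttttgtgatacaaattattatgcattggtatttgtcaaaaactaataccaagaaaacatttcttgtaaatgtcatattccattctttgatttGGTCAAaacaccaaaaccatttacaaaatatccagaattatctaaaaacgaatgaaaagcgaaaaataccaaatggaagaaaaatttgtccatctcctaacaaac
AT1G35710: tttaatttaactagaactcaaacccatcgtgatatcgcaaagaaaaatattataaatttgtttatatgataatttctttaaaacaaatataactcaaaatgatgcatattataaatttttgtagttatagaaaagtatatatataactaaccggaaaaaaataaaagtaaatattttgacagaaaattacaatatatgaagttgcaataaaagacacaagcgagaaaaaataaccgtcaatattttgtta
AT1G56120: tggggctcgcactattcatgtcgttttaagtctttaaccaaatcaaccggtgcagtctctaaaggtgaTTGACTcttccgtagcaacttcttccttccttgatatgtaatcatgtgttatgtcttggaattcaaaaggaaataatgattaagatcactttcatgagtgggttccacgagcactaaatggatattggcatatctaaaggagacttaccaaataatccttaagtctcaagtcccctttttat
AT5G59680: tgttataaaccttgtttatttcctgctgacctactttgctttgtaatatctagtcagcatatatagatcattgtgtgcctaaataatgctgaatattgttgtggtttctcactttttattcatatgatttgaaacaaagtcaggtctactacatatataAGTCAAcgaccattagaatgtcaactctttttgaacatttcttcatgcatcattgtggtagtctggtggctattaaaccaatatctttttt
The W-box begins at -105 from the start of BIR1, -182 of AT1G56120 and -91 of AT5G59680, and the AT1G35710 window holds none. Windows of the same length held a W-box in 36.2% of the 127 members and in 28.4% of 27443 protein-coding genes. Among 9 tested members that were higher at a time or on average, SOBIR1 left out, 5 held one (BIR1, PEPR1, GSO1, AT1G56120 and AT5G59680), as did 34 of the 100 tested members that were not higher. The G-box CACGTG, which MYC-type factors bind, was in 4.72% of member windows and 6.49% of all, and the evening element AAAATATCT in 1.57% and 2.36%. These matches describe letters in a window and do not show that a factor binds there.

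SOBIR1 (AT2G31880) was higher in every jaz4-1 library than in every Col-0 library of the same time, at all 4 times. At ZT0 it had 866, 825 and 695 normalised reads in jaz4-1 and 316, 311 and 386 in Col-0. At ZT6 the values were 829, 828 and 609.5 against 191, 352 and 376. The lowest mutant library thus stood well above the highest wild-type library at both times. At ZT12 jaz4-1 had 385, 424 and 669 and Col-0 326, 290.5 and 290.1, and at ZT18 the values were 466, 451 and 541 against 325, 376 and 304. The gap was narrower at these later times. The log2 difference was 1.23 ± 0.21 (SE; limma adjusted p = 0.00284) at ZT0 and 1.35 ± 0.21 (adjusted p = 0.000991) at ZT6, and neither call was lost under any of 33 alternatives. It was 0.66 at ZT12 (limma adjusted p = 0.431) and 0.54 at ZT18 (adjusted p = 1), which missed the threshold, and 0.94 ± 0.11 on average (adjusted p = 8.6e-06). Whether the difference depended on the time missed the threshold (limma adjusted p = 0.656). Of the alternatives, 24 left out 1 library each. Leaving out a library of another time changed the estimate of spread but not the difference at ZT0 or ZT6. The annotation places 2 antisense genes over SOBIR1, and no source used here gives the strand setting of the counts, so reads of the overlapping genes cannot be told apart.

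BIR1 (AT5G48380, chr5:19604089-19607147, - strand, 3 exons), described in the table as probably inactive, rose with SOBIR1 at both early times. At ZT0 jaz4-1 had 640.2, 666 and 597 normalised reads and Col-0 374, 407 and 345. At ZT6 the values were 721, 785 and 825 against 348, 411 and 428, again without overlap. The log2 difference was 0.76 ± 0.16 at ZT0 (limma adjusted p = 0.0169) and 0.98 ± 0.16 at ZT6 (adjusted p = 0.00121). The ZT0 call was lost in 3 of 33 alternatives, which were the limma fit to the libraries of ZT0 alone (adjusted p = 0.180) and the fits without jaz4-1 replicate 1 (adjusted p = 0.0712) or Col-0 replicate 1 (adjusted p = 0.0534). At ZT12 the lines overlapped, with 763, 817 and 1367 in jaz4-1 and 925, 833 and 846 in Col-0. The average difference was 0.52 ± 0.08 (limma adjusted p = 0.000275). The other members in the role list of coreceptors and their regulators, BIR2 and APEX, were not called, with average differences of 0.11 and 0.08.

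**Figure D1:**
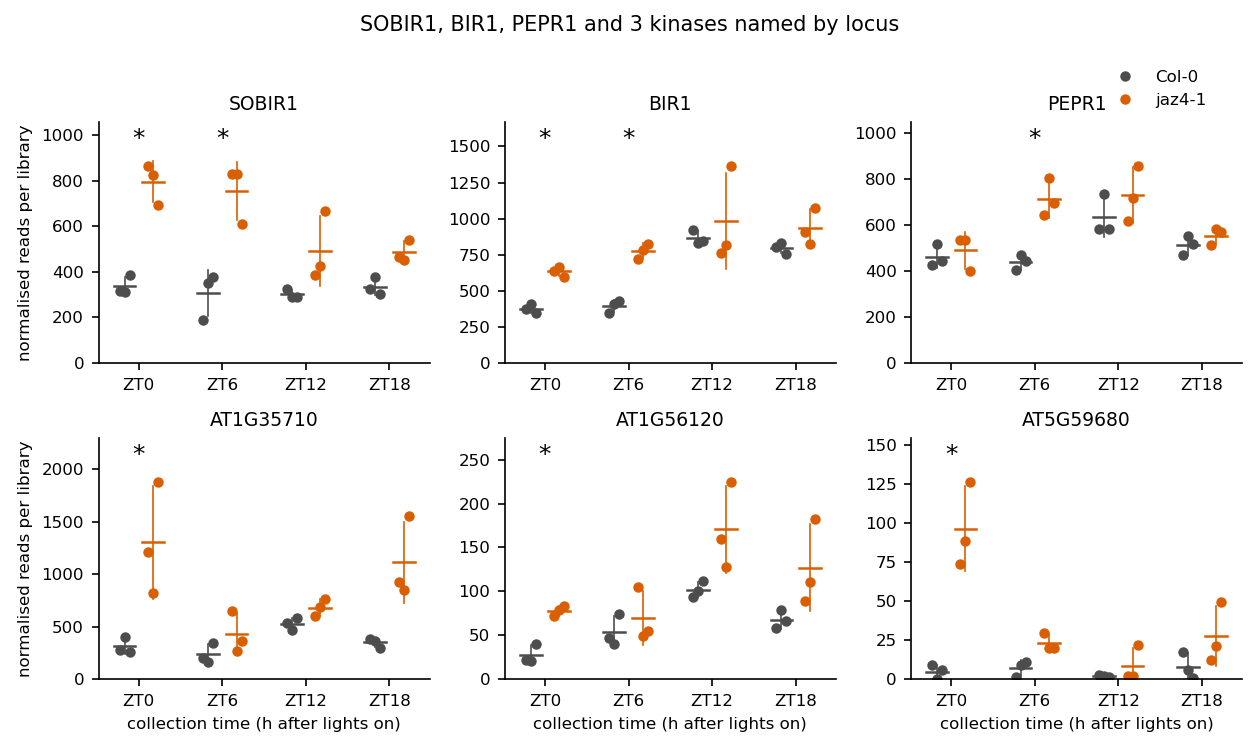
Normalised reads (vertical axis, linear from 0) of 6 members in each library at the 4 times, Col-0 in grey and jaz4-1 in orange, with the mean as a bar, the SD as a line and an asterisk where the adjusted p was under 0.05. SOBIR1 is above Col-0 in all 3 jaz4-1 libraries at every time, from 695 to 866 against 311 to 386 at ZT0, and BIR1 is separated at ZT0 and ZT6 alone.

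Among the immune receptors and immunity-linked kinases, 1 of 7 tested members was called, at ZT6 and on average. Of all tested genes, 2.95% and 4.68% were called there. The role lists were chosen with earlier results of these data known. PEPR1 (AT1G73080), the receptor of the plant's own Pep danger peptides, had 642, 802 and 697 normalised reads in jaz4-1 at ZT6 and 403, 467 and 444 in Col-0. The lines did not overlap there, while at ZT0, with 537, 535 and 398 against 427, 517 and 444, they did. The ZT6 difference was 0.70 ± 0.14 on the log2 scale (limma adjusted p = 0.00822), and leaving out jaz4-1 ZT6 replicate 2 (adjusted p = 0.0603) or Col-0 ZT6 replicate 1 (adjusted p = 0.0646) ended the call. Its average difference of 0.27 ± 0.07 (limma adjusted p = 0.0298) was lost in 8 of 32 alternatives, each of which left out 1 library, with an adjusted p of at most 0.0621. PEPR1 shares 2.55% of its 50-base windows with AT1G73066. Its paralogue PEPR2 was not called, with an average difference of 0.06, nor were the flagellin receptor FLS2 (0.15) and the EF-Tu receptor EFR (0.81, limma adjusted p = 0.180). On the scale set over all libraries, EFR had 109, 78.1 and 103 reads in jaz4-1 at ZT6 and 53.4, 44.6 and 44.4 in Col-0. At ZT12 the values were 89.7, 99.3 and 86.9 against 54.7, 46.5 and 58.5. The lines did not overlap at ZT6 and ZT12 and did at ZT0 and ZT18. EFR was not called by limma at any time, and was under 0.05 at ZT6 in the authors' deposited table.

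AT1G35710 (chr1:13220471-13224681, 2 exons) is described only as a probable leucine-rich repeat receptor-like kinase, and at ZT0 it had 1214, 817 and 1883 normalised reads in jaz4-1 and 276, 401 and 262 in Col-0. At ZT18 it had 927, 851 and 1558 against 383, 367 and 301. The lines stood apart at both times, with a wide spread inside jaz4-1. They also stood apart at ZT12, with means of 683 in jaz4-1 and 527 in Col-0, and overlapped at ZT6, with 429 and 236. The log2 difference was 2.00 ± 0.33 at ZT0 (limma adjusted p = 0.00225) and 1.62 ± 0.33 at ZT18 (adjusted p = 0.0514), which narrowly missed the threshold. On average it was 1.21 ± 0.16 (limma adjusted p = 0.000123), and neither the ZT0 nor the average call was lost under any alternative.

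AT1G56120 (chr1:20987128-20993572, 23 exons), described as a transmembrane kinase, had 71.9, 78.9 and 82.8 normalised reads in jaz4-1 at ZT0 and 21.5, 20.6 and 40.5 in Col-0, with no overlap. The difference was 1.53 ± 0.33 (limma adjusted p = 0.0229) at ZT0 and 0.85 ± 0.17 (adjusted p = 0.00365) on average. Without a call, the lines also stood apart at ZT12 (means of 171 in jaz4-1 and 102 in Col-0) and at ZT18 (127 and 67.6). They overlapped at ZT6. The ZT0 call was lost in 7 of 33 alternatives, and the average call in none. Among the 7 were each of jaz4-1 replicates 1 and 3 and Col-0 replicates 1 and 2 left out (adjusted p 0.0676 to 0.123), limma-voom (adjusted p = 0.118) and the limma fit to the libraries of ZT0 alone (adjusted p = 0.411). Its neighbours AT1G56130 and AT1G56140 gave differences of 0.26 and 0.14 at ZT0 and were not called, and AT1G56120 shares 0.669% of its 50-base windows with AT1G56130.

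The malectin-like group joins a carbohydrate-binding type of outer domain to the repeats, and 1 of its 10 tested members was called. The calls were at ZT0 and on average, where 0.923% and 4.68% of all tested genes were called. AT5G59680 (chr5:24046512-24051112, 13 exons) was nearly silent in Col-0 at ZT0, with 8.76, 0 and 5.79 normalised reads, and had 73.7, 88.7 and 126 in jaz4-1. The groups lay far apart, at a low level in both. The difference was 4.55 ± 0.93 on the log2 scale of value + 1 (limma adjusted p = 0.0144), and 2.38 ± 0.46 (adjusted p = 0.00378) on average. The ZT0 call was lost without jaz4-1 ZT0 replicate 3 (adjusted p = 0.0726) and in the limma fit to the libraries of ZT0 alone (adjusted p = 0.102). It was also lost without Col-0 ZT0 replicate 2, the library at 0, where the difference was 3.54 (adjusted p = 0.115). Its relatives AT5G59650 and AT5G59660, close by on the chromosome, gave ZT0 differences of 0.23 and -0.04 and were not called.

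None of the 4 hormone and growth peptide receptors among the members (BRL2, PSKR2, PSY1R and HSL2) was called at any time. Of all tested genes, 0.138% (ZT18) to 2.95% (ZT6) were called at a time. Of the 15 tested development receptors, 2 rose at ZT6, where 2.19% of all tested genes were called higher. RPK2 (AT3G02130), a receptor of meristem and anther development, had 968, 1434 and 1213 normalised reads in jaz4-1 and 662, 683 and 603 in Col-0. GSO1 (AT4G20140), known in roots as the receptor that seals the Casparian strip, had 337, 358 and 249.5 against 137, 182 and 142. For both genes the lines did not overlap at ZT6. The GSO1 mean was lower in jaz4-1 at ZT0 (223 against 309) and ZT18 (114 against 141), where the lines overlapped. At ZT12 it was higher (132 against 113). The ZT6 differences were 0.87 ± 0.17 for RPK2 (limma adjusted p = 0.00641) and 1.02 ± 0.25 for GSO1 (adjusted p = 0.0297). Without jaz4-1 ZT6 replicate 2 both calls were lost, at adjusted p = 0.0558 and 0.144, and the GSO1 call was also lost without jaz4-1 replicate 1 or Col-0 replicates 1 or 3. GSO1 overlaps 1 antisense gene. RPK2 was also called on average (0.33 ± 0.09, limma adjusted p = 0.0303), a call that 9 of 32 alternatives, each without 1 library, took away with adjusted p up to 0.0683. The stomatal receptors ERECTA, ERL1 and ERL2 gave ZT6 differences of -0.40, -1.04 and -0.30, and none passed the test.

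Among the 70 tested members of no role list, AT1G53430 (chr1:19934987-19941185, 24 exons) had the smallest p at ZT6. It had 1548, 1557 and 1674 normalised reads in jaz4-1 and 839, 894 and 923 in Col-0. At ZT0 the values were 534, 599 and 546 against 515, 584 and 570.0, and at ZT18 1336, 1138 and 1271 against 1404, 1189 and 1044. The lines were far apart at ZT6 and overlapped at the other 3 times. The ZT6 difference was 0.85 ± 0.12 (limma adjusted p = 0.000298) and held under all 33 alternatives. It was 0.01 at ZT0, -0.13 at ZT12 and 0.05 at ZT18, and the test of whether the difference depends on the time gave a limma adjusted p of 0.0228. AT1G53430 was the 1 member of 110 (0.909%) called by that test, against 0.194% of all genes, and the call was lost in 7 of 32 alternatives, at adjusted p up to 0.0870. The libraries whose absence ended it were jaz4-1 ZT6 replicates 2 and 3, Col-0 ZT6 replicates 1 and 2, jaz4-1 ZT12 replicate 2 and Col-0 ZT12 replicate 1. The neighbouring AT1G53440 had 694, 769 and 714 in jaz4-1 at ZT6 and 563, 556 and 543 in Col-0, a difference of 0.39 (limma adjusted p = 0.120). AT1G53430 shares 1.68% of its 50-base windows with it.

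AT2G23950 (chr2:10186891-10190492, 11 exons) was called lower in jaz4-1 at ZT6. There it had 167, 148 and 162 normalised reads in jaz4-1 and 299.5, 299 and 325 in Col-0, without overlap, and at ZT0 244, 249.7 and 222 against 264, 186 and 191, with overlap. The ZT6 difference of -0.95 ± 0.18 (limma adjusted p = 0.00520) held under all 33 alternatives. AT1G29730 was called lower on average. Its difference of -0.60 ± 0.17 (limma adjusted p = 0.0494) was lost in 24 of 32 alternatives, with adjusted p up to 0.0931, and it shares 2.83% of its 50-base windows with its neighbour AT1G29740. The eighth member higher on average, AT5G25930, named here because its values had been seen, had 98.9, 69.0 and 111 in jaz4-1 and 38.2, 24.3 and 51.0 in Col-0 at ZT0. Its average difference was 0.79 ± 0.21 (limma adjusted p = 0.0328), and it overlaps 2 antisense genes. The sign was not the same at all 4 times. At ZT18 its mean was 111 in jaz4-1 and 118 in Col-0 on the scale set over all libraries. How its average call fared under the alternatives is not given here.

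**Figure D2:**
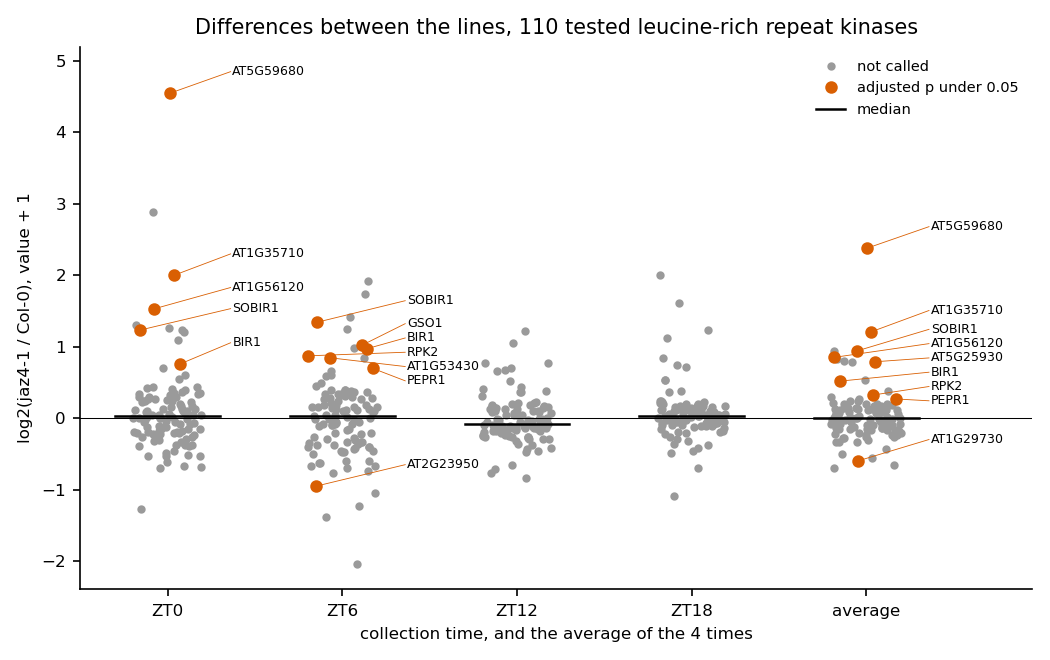
The log2 difference between jaz4-1 and Col-0 (vertical axis, on value + 1) for each of the 110 tested members at the 4 times and on average, with called members in orange and named and the median as a black bar. The called members lie above 0, other than AT2G23950 at ZT6 and AT1G29730 on average, which lie below it. Members that were not called lie farther out in places, up to 1.92 and down to -2.05 at ZT6. The medians are 0.03, 0.03, -0.08 and 0.04 from ZT0 to ZT18, and no member is called at ZT12 or ZT18.

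**Figure D3:**
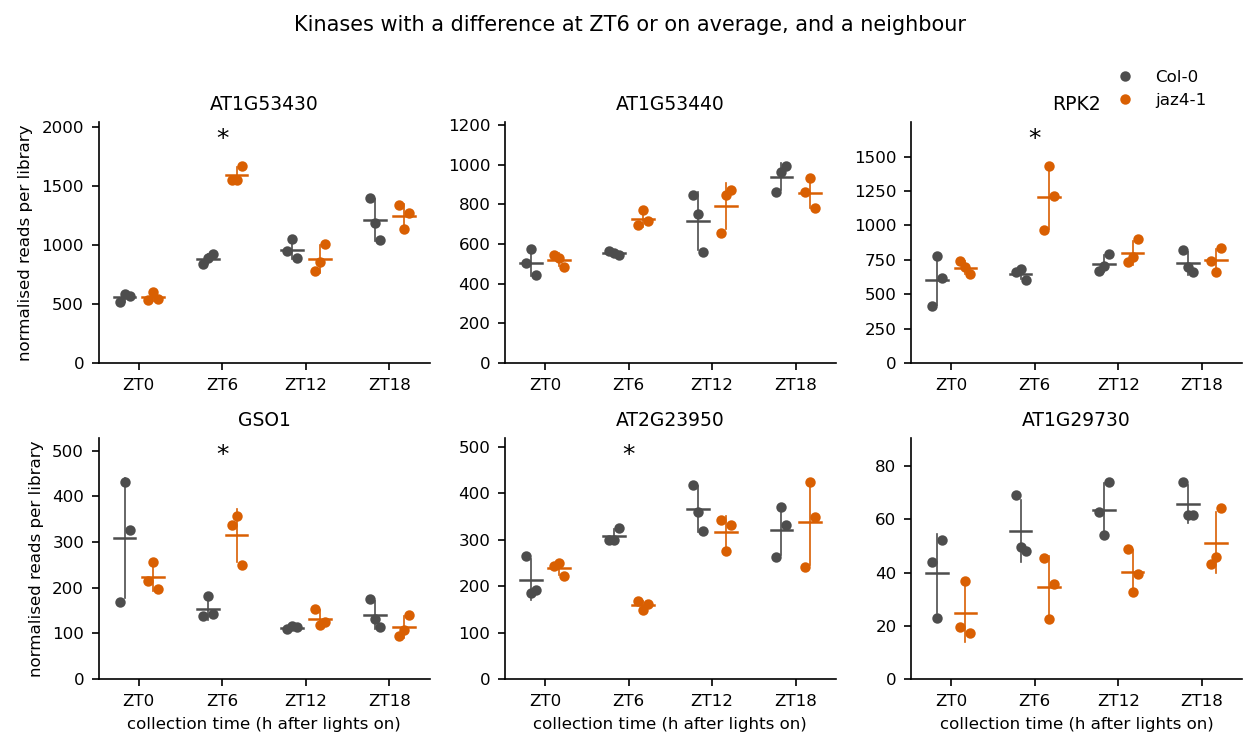
Normalised reads (vertical axis, linear from 0) of 6 members in each library at the 4 times, Col-0 in grey and jaz4-1 in orange, with the mean, the SD and an asterisk where the adjusted p was under 0.05. AT1G53430 is separated at ZT6 (1548 to 1674 against 839 to 923) and overlaps at the other times, and AT2G23950 is lower in jaz4-1 at ZT6.

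At ZT12 limma called 0 of 110 members, where 0.321% of all genes were called, and 3 members (2.73%; SOBIR1, AT1G56120 and BAM2) had an unadjusted p under 0.05, against 4.88% of all genes. At ZT18 limma also called 0, against 0.138% of all genes, and 5 (4.55%) had an unadjusted p under 0.05, against 3.03% of all genes. At both times edgeR and limma-voom also called 0, and DESeq2 called 0 at ZT12 and 1 at ZT18. At ZT12 the members leaned lower in jaz4-1 in their ranks: in 17 (15.5%) all 3 jaz4-1 libraries lay below all 3 Col-0 libraries, against 7.16% of all genes, and their median log2 difference was -0.08 against 0.00. In 8 (7.27%) they lay above, against 7.49% of all genes. At ZT0 14 members (12.7%) lay above without overlap and 1 (0.909%) below, against 6.75% and 4.62% of all genes. At ZT6, 18 (16.4%) lay above and 14 (12.7%) below, against 13.9% and 12.9%, and at ZT18 9 (8.18%) and 3 (2.73%), against 5.03% and 5.13%.

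At ZT12 1 mutant library was the highest for several of the members above, a point noticed once the values were seen. Replicate 3 of jaz4-1 had the highest of 6 values for SOBIR1 (669), BIR1 (1367), PEPR1 (858), AT5G59680 (21.9) and AT5G25930 (155). The other mutant libraries had 1.98 and 1.99 for AT5G59680 and 31.8 and 38.7 for AT5G25930, where Col-0 had 49.2, 32.3 and 39.8. Over the 110 members that library was the highest of 6 in 27 and the lowest in 31. Without it the SOBIR1 difference at ZT12 was 0.42 on the log2 scale in place of 0.66.

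Counts at single times moved with single libraries. At ZT0, 3 members were called without any 1 of jaz4-1 replicates 1 and 3 and Col-0 replicates 1 and 2, and at ZT6 4 were called without jaz4-1 replicate 2. On average over the times 5 were called without jaz4-1 ZT18 replicate 3. The shares of all genes called in these fits are not given here. SOBIR1, AT1G35710 at ZT0, and AT1G53430, BIR1 and AT2G23950 at ZT6 kept their calls without any 1 library. In the authors' deposited table, which compares the lines at each time separately, 4 of 111 members with a value (3.60%) had an adjusted p under 0.05 at ZT0 (SOBIR1, BIR1, AT1G35710 and AT5G59680), against 0.548% of all genes with a value. At ZT6 the authors' deposited table had 10 of 105 members (9.52%) against 6.90% of all genes, at ZT12 0 of 103 against 0.797%, and at ZT18 1 of 110 (0.909%, AT1G35710) against 0.377%. The ZT6 members were SOBIR1, BIR1, PEPR1, AT1G53430, AT2G23950, RPK2, GSO1, EFR, IMK2 and AT5G25930. Of these, limma did not call EFR, IMK2 and AT5G25930 at ZT6. The IMK2 mean there was lower in jaz4-1, at 519 against 835 on the scale set over all libraries.

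Genes around the receptors were read from lists that hold no member and were chosen with earlier results of these data known. Of 4 receptor-like proteins known to pair with SOBIR1, 1 rose on average: RLP23, a receptor of NLP peptides, by 1.46 on the log2 scale (limma adjusted p = 0.00223), and none was called at a single time. Of 4 tested ligand genes, PROPEP1, PSK2, PSK4 and PSK5, none was called at any time. Of all tested genes, 2.19% were called higher at ZT6, 0.321% in either direction at ZT12 and 3.28% higher on average. Of 18 tested genes that act below immune kinases, 5 rose at ZT6, 1 at ZT12 and 6 on average, and none fell. They included the mitogen-activated kinase MPK3 (0.91 at ZT6, limma adjusted p = 0.00664), the calcium-dependent kinase CPK28 (1.03, adjusted p = 0.00256) and the transcription factor WRKY22 (1.42, adjusted p = 0.00433). WRKY22 also rose at ZT12, by 1.38 (limma adjusted p = 0.0182). Of 7 tested brassinosteroid genes, none was called between the lines. Among the 35 tested role-list kinases whose description misses the rule, 3 rose at ZT0, and 4 rose and 1 fell at ZT6. Of all tested genes, 0.734% were called higher at ZT0, and 2.19% higher and 0.760% lower at ZT6. At these times MIK2, an immune receptor of SCOOP peptides, was higher by 0.85 (limma adjusted p = 0.00651) and 1.19 (adjusted p = 0.000276). It was named after its values were seen.

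The members also moved through the day in both lines. For this, reads were scaled over all 24 libraries. The level changed over the 4 times in 47 of 110 members in Col-0 (42.7%, against 49.1% of all tested genes) and in 51 in jaz4-1 (46.4%, against 53.5%). In the median changed member the highest time was 1.96-fold the lowest in Col-0 and 1.99-fold in jaz4-1, against 2.05 and 2.10 for all changed genes. Of the 47 members in Col-0, 12 were highest at ZT0, 5 at ZT6, 11 at ZT12 and 19 at ZT18, and the share at ZT18 was 40.4% against 12.3% of all changed genes. Of the 51 in jaz4-1, the counts were 21, 11, 7 and 12, with 23.5% at ZT18 against 10.5% of all changed genes. The sets differ between the lines: 33 members changed in both, and 23 of these (69.7%) were highest at the same time in both, against 79.1% of all genes changed in both. The 14 and 18 members past the threshold in Col-0 or jaz4-1 alone are not thereby shown to differ, since only AT1G53430 passed the test of that difference.

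The members named for the smallest p over the day, AT1G53430 apart, were highest at the same time in both lines. RFK1 was a dawn gene in both: the Col-0 libraries had 1656, 2841 and 2552 reads on this scale at ZT0 and 416, 305 and 259 at ZT12, and the jaz4-1 libraries 1769, 1601 and 3818 and then 308, 308 and 202. The ZT0 and ZT12 values were far apart in both lines, and the highest mean was 7.20-fold the lowest in Col-0 and 8.78-fold in jaz4-1 (limma adjusted p = 1.0e-06 and 5.5e-07). AT3G46370, a malectin-like kinase, was a midday gene, with 613, 499 and 507 at ZT6 in Col-0 and 92.8, 103 and 78.7 at ZT12. Its jaz4-1 libraries had 1014, 592 and 581 and then 106, 87.5 and 71.1, and the range was 5.90-fold and 8.25-fold (adjusted p = 8.1e-07 and 1.0e-07).

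FLS2, the flagellin receptor, was lowest at dusk and highest at ZT18. Col-0 libraries had 60.7, 69.0 and 52.8 at ZT12 and 303, 262 and 165 at ZT18, and jaz4-1 libraries 70.4, 73.2 and 60.6 and then 275, 256 and 239.9. No ZT12 library reached any ZT18 library, and the range was 4.0-fold and 3.78-fold (limma adjusted p = 5.8e-07 and 4.3e-07). AT1G67510 and AT5G01950 had the smallest p in Col-0 and were lowest at dawn: AT1G67510 rose from a mean of 60.0 at ZT0 to 279 at ZT12, and AT5G01950 from 194 to 667 at ZT6. PSY1R, a receptor of a sulfated growth peptide, was highest at ZT0 with means of 607 in Col-0 and 762 in jaz4-1 and lowest at ZT12 with 258 and 268. The remaining members with the smallest p, AT2G33170, AT1G68400 and AT5G10290, had their lowest mean at ZT6 in both lines, and ranged 3.07-fold, 1.94-fold and 1.87-fold in Col-0. AT5G01950 and FLS2 each overlap 1 antisense gene.

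On this scale SOBIR1 changed over the day in jaz4-1 and not, by the threshold, in Col-0. Its means from ZT0 to ZT18 were 926, 822, 416 and 450.3 in jaz4-1 (limma adjusted p = 5.9e-05) and 392, 329, 254 and 310.4 in Col-0 (adjusted p = 0.107). BIR1 changed in Col-0 (limma adjusted p = 5.8e-05) and not, by the threshold, in jaz4-1 (adjusted p = 0.572). The test of the difference itself missed the threshold for both genes (limma adjusted p = 0.656 and 0.256). AT1G53430 changed in both, with its highest mean at ZT18 in Col-0 (1124) and at ZT6 in jaz4-1 (1732).

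**Figure D4:**
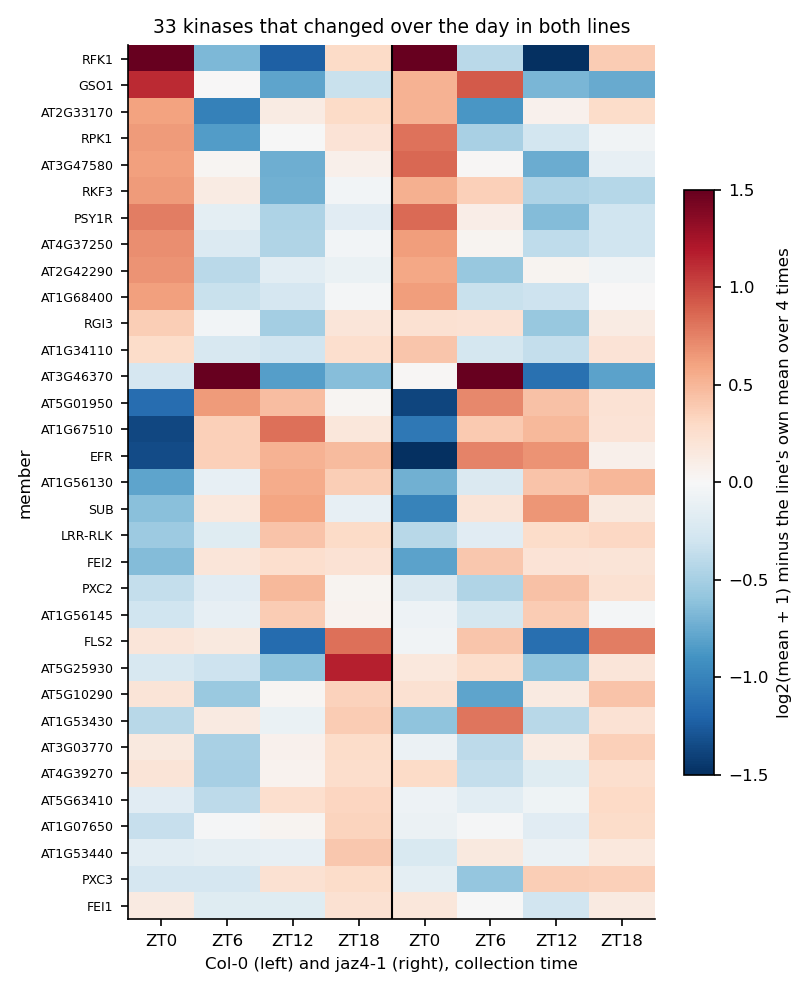
Rows are the 33 members that changed over the day in both lines, columns the 4 times in Col-0 (left) and jaz4-1 (right), and colour is log2(mean + 1) minus the line's own mean over its times, cut at 1.5 in either direction. RFK1 is highest at ZT0 and FLS2 at ZT18 in both lines, and AT1G53430 moves from ZT18 in Col-0 to ZT6 in jaz4-1.

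Summed over the 127 members, the kinases took a larger share of reads at dusk and in the night than in the morning. The share was 0.232% ± 0.0155 (SD, n = 3) at ZT0, 0.244% ± 0.00203 at ZT6, 0.306% ± 0.00847 at ZT12 and 0.309% ± 0.0325 at ZT18 in Col-0. In jaz4-1 it was 0.246% ± 0.0291, 0.229% ± 0.0103, 0.282% ± 0.00278 and 0.314% ± 0.0297. At ZT6 and at ZT12 each jaz4-1 library lay below each Col-0 library, and at ZT0 and ZT18 the lines overlapped. The share is relative to all other genes, and the sum, chosen after the members were known, was given no test.

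**Figure D5:**
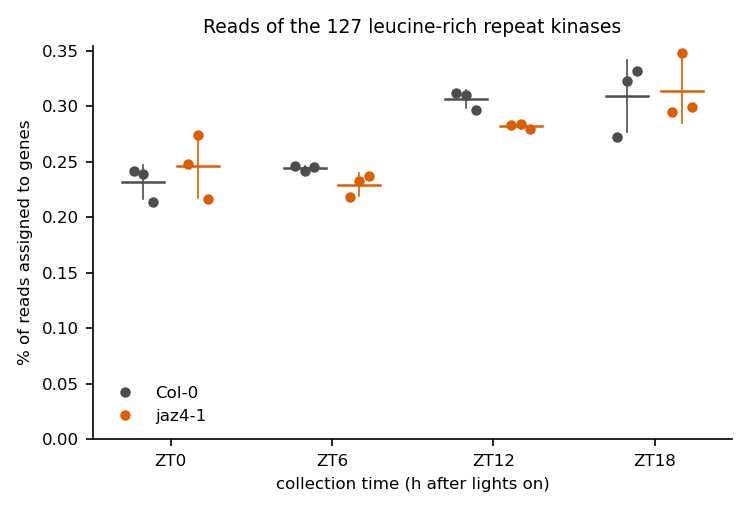
Share of reads assigned to genes that fell on the 127 members (vertical axis, %, from 0) in each library at the 4 times, Col-0 in grey and jaz4-1 in orange, with the mean and SD. Shares run from 0.214% to 0.274% at ZT0 and from 0.272% to 0.348% at ZT18.

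In the genome the members lie on all 5 nuclear chromosomes, 41, 21, 15, 11 and 39 from chromosome 1 to 5, and 23 have another member as the neighbouring gene. In RefSeq's annotation 10 have 1 exon and 56 have 10 or more, with a median exonic length of 3253 bases. A member can share reads with a relative: 20 share at least 1 exact 50-base window with another gene, 2 of them over 5% of their windows, and 33 overlap a gene on the other strand.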

How the data were processed

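RNA-seq was read from 1 table of 24503 genes and 24 libraries. Per the submitters' processing notes, HISAT2 and featureCounts were used with TAIR10, and no source used here gives versions or the strand setting. The deposited values of each library, headed RPKM per the file headers, are a scaled signal: multiplied by 1 factor per library, 100% of values lay within 0.001 of a whole read. The authors' deposited log2 fold changes, p-values and adjusted p-values were only counted.

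Main test: limma 3.58.1 (trend, robust) on log2(value + 1), all 24 libraries, 1 coefficient per line and time, 19614 genes kept by filterByExpr (minimum count 10, total 15), with 16 residual degrees of freedom and Benjamini-Hochberg adjustment, called under 0.05. Change over the day used recovered reads scaled by median-of-ratios over all libraries. The design had foreseen RPKM or counts, and the same limma test was kept for the scaled signal. Alternatives were a pseudocount of 4, no filter, TMM scaling, edgeR 4.0.16 and DESeq2 1.42.0 on recovered reads (from ZT0 to ZT18 edgeR called 151, 532, 71 and 25 genes, of them 5, 7, 0 and 0 members), limma-voom, fits on 1 time or line, a wider member set, a replicate block, and libraries left out. The pipeline was tested on simulated data.

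SOBIR1 was named first, then called members that averaged 1 CPM or more and whose lines did not overlap at a time (8 largest and 8 smallest differences), or the same sign at all 4 times on average, 6 members by dependence on time, 8 per line by the smallest p over the day, up to 3 called genes of each other list, and the 6 highest per coding length. Members and lists were chosen with earlier results of these data known. Roles, markers, promoters and overlaps were matched by locus for all 127 members to RefSeq's TAIR10.1 annotation. The promoter of SOBIR1 is not reported here. 3 replicates per group limit the precision.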

Additional observations from a re-analysis of the deposited data

Results flagged for a closer look

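AT1G53430 was singled out because its difference between the lines depended on the time, by limma's test of that difference (adjusted p = 0.0228 over all tested genes). The log2 difference was 0.85 at ZT6, with 3 of 3 jaz4-1 libraries above all Col-0 libraries, and 0.01, -0.13 and 0.05 at ZT0, ZT12 and ZT18, where the lines overlapped. The adjusted p of the dependence on time lay between 1.0e-05 and 0.0870 over 32 alternatives. No cause was tested.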

How the results depend on the processing

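No called difference of a named member changed direction under any alternative run, AT5G25930 left aside. How its average call fared under the alternatives is not given here. The members' median average difference was -0.0022 with limma, 0.0060 with edgeR and 0.0064 with DESeq2. With DESeq2, 14 members were called on average (9 by limma), 3 for dependence on time and 1 at ZT18, while its calls over all genes were 8.47%, 1.07% and 0.280% (4.68%, 0.194% and 0.138% by limma). 1 member was also called at ZT18 with no filter on low values, with the libraries of that time alone, and without Col-0 ZT0 replicate 2 and jaz4-1 ZT6 replicate 2, the 2 few-gene libraries. At ZT0, 2 were called with the libraries of that time alone, where calls over all genes also fell, to 0.148%. Without those 2 few-gene libraries 3 were called at ZT0, and 0 were left for dependence on time. The shares of all genes called without these 2 libraries are not given here. Counting the 35 tested role-list kinases outside the wording rule together with the 110 tested members gave 8 at ZT0, 12 at ZT6 and 18 on average. Of all tested genes, 0.923%, 2.95% and 4.68% were called in these comparisons. The role lists were chosen with earlier results of these data known. The cause of these shifts was not tested, other than by the sets of libraries or genes named.

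Leaving out 1 library at a time gave 3 to 6 members at ZT0, 4 to 8 at ZT6, 0 to 0 at ZT12, 0 to 1 at ZT18, 5 to 12 on average, 0 to 2 for dependence on time, and 39 to 51 and 44 to 56 for the change over the day in Col-0 and jaz4-1. The shares of all genes called in these fits are not given here, so the ranges do not separate the members from all genes. The labels do not say that replicate numbers pair the samples. In the values, however, 7 of 12 same-numbered pairs had deviations correlated over 0.1 (-0.0978 to 0.327). Of the 12, 9 correlated best with their own number among the 3 of the other line. Some variation thus went with the replicate number, a term that the main test leaves out. With the replicate number as a block, calls over all genes also grew, to 7.64% on average, 6.72% at ZT6 and 1.40% at ZT0. They were 0.438% at ZT12, 0.117% at ZT18 and 0.347% for dependence on time. Over the day they were 49.8% in Col-0 and 54.1% in jaz4-1. Under this block 14 members were called on average (2 lower, AT1G29730 not called at limma adjusted p = 0.0636), 10 at ZT6 (2 lower), 5 at ZT0, 0 at ZT12 and ZT18, 1 for dependence on time, and 47 and 54 over the day. Depth limits the 17 untested members and those under 1 CPM.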
